A study of Mus musculus with 10 samples.

Results

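The genes described here are 42 genes of DNA replication and S phase, taken by symbol from the 23388 gene symbols that hold a value in all 4 deposited RNA-seq tables of differentiating C2C12 cells. C2C12 is a mouse myoblast line that divides in growth medium with 10% serum and, on a change to 2% horse serum, leaves the cell cycle and fuses into myotubes. The list was not chosen by level or by fold change, but it was drawn up with earlier results of these data known. Its shares set beside those of all genes are therefore descriptions. All 42 symbols were found in every table. The question put to them was which of them were shut off when the cells differentiated and which lingered, in control cultures, after Huwe1 knockdown and with USP10 overexpression. Huwe1 is a ubiquitin ligase of the HECT family, and USP10 is a deubiquitinating enzyme that removes ubiquitin from its substrates.

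The series held 10 libraries. The day 0 control was 1 library of wild type myoblasts in growth medium, and the day 6 control was 1 library of wild type cells on day 6 of differentiation. Huwe1 knockdown at days 0 and 6 was 2 libraries each, 1 for each of 2 hairpins carried by lentivirus and kept under puromycin. The day 8 control was 1 library, a non-targeting hairpin per the labels, although the header of its table calls it wild type. Huwe1 knockdown at day 8 was again 2 libraries, with 2 hairpins of other sequences per the labels, although the study's methods name 1 pair for myoblasts and myotubes, that of the day 8 labels. At day 8 the virus was added on day 4 of differentiation, when myotubes had formed, for 2 days before 2 days of puromycin. USP10 overexpression was 1 library on day 6 of differentiation from a stable line in which the EF1a promoter drives a USP10 cDNA. The tables give 1 value for each condition, with the 2 knockdown libraries pooled, so there were no replicates of any value below, no test could be run, and every difference is a description of these libraries. The USP10 table has a control column of its own, called the USP10 control below. Its header names the library of the day 6 control, but its values and its depth differ from that column, so it was not assigned to a library and is given as the authors' value.

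Values are FPKM, which scales fragments by transcript length and library size, and ratios are log2 of treated to control FPKM with 0.01 added to each, a scale that understates changes of the lowest values. From the steps between the lowest FPKM values, the control libraries held an estimated 21800000 fragments at day 0, 29800000 at day 6 and 18200000 at day 8, the USP10 control 7820000 and the USP10 library 27700000, while the depth of pooled columns could not be estimated. Huwe1 itself was at 38.3 and 15.2 FPKM in control and knockdown at day 0, at 35.1 and 21.9 FPKM at day 6, and at 55.4 and 33.0 FPKM at day 8. Usp10 was at 10.3 FPKM in the USP10 control and 38.3 FPKM in the USP10 library. Myotube markers summed to 52.3 FPKM over 18 genes in the day 0 control and to 29724, 22168 and 12264 FPKM in the day 6, day 8 and USP10 controls. All 18 were lower than in the control of the same table after knockdown at day 6 and day 8 and with USP10, where they summed to 5129, 4490 and 5118 FPKM. The tables were normalized separately, so levels set side by side across tables, including every percentage of day 0, are descriptions. In a bulk culture, fewer cells in S phase and less RNA per cell cannot be told apart.

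A cell copies its genome once per cycle by loading the MCM helicase onto origins in G1, which is called licensing, and by switching it on in S phase. The origin recognition complex, Cdc6 and Cdt1 load the helicase, Cdc45 and the GINS complex activate it, and the sliding clamp PCNA holds the polymerases on the DNA. Most of these genes are transcribed from E2F sites late in G1, and in muscle cells the Rb family of pocket proteins keeps E2F targets silent once the cells have left the cycle.

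The starts of 6 of the genes are shown because they span what the licensing and helicase activation genes kept in the day 6 control, from Cdc6 (0.489% of its day 0 level), Orc1 (0.968%), Mcm5 (1.27%) and Mcm6 (6.41%) to Gins3 (47.3%) and Orc6 (49.5%). Each is the 250 bases before the RefSeq start in mouse build GRCm38.p6, written 5′ to 3′ on the strand of the gene, with capitals on matches to the E2F octamers TTTCCCGC, TTTGCCGC, TTTCGCGC and TTTGGCGC on either strand. Cdc6 lies at chr11:98907901-98908150 on the plus strand, Orc1 at chr4:108579204-108579453 on the plus strand, Mcm5 at chr8:75109259-75109508 on the plus strand, Mcm6 at chr1:128359706-128359955 on the minus strand, Gins3 at chr8:95633309-95633558 on the plus strand and Orc6 at chr8:85299382-85299631 on the plus strand. The stretch of Cdc6 lies inside the locus listed for the gene in the deposited tables, which begins at base 98907889, so there it is not upstream of the gene as quantified.
Cdc6: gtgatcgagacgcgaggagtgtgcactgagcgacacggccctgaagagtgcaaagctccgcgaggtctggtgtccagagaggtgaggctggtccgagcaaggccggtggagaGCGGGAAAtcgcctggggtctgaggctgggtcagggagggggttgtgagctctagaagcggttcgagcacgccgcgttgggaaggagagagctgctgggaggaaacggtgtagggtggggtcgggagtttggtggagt
Orc1: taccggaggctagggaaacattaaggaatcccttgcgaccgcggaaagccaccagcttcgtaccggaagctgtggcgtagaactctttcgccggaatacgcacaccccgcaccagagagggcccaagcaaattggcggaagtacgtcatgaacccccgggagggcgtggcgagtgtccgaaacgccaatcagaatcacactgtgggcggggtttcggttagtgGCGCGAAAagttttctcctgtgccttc
Mcm5: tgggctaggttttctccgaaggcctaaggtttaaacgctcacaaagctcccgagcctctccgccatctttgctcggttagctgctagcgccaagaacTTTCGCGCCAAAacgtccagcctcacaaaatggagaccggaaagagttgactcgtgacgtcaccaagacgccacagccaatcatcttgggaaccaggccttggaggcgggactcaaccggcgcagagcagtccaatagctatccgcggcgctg
Mcm6: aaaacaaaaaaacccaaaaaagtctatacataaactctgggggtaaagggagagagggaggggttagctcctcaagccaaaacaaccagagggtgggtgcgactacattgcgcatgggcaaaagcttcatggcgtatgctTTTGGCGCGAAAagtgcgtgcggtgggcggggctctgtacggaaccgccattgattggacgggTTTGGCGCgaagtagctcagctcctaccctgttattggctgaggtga
Gins3: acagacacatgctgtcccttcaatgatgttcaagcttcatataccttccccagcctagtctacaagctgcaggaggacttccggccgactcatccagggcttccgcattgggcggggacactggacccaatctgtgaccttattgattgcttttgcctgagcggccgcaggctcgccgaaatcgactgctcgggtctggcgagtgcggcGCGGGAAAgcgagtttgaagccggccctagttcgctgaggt
Orc6: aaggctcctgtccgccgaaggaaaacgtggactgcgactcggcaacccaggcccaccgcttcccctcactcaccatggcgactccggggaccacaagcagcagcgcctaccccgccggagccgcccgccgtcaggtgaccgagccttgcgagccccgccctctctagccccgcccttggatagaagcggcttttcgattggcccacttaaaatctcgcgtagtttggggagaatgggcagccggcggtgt
Cdc6 and Gins3 carry the same octamer letters, GCGGGAAA, which begin at position -138 from the start in Cdc6 and -41 in Gins3, and the match of Orc1 begins at -27. Mcm5 and Mcm6 each hold a pair of overlapping octamers, Mcm6 with a further one 47 bases before its start, and Orc6 holds none. Other licensing and helicase activation genes with a promoter entry went both ways in windows reaching 50 bases past the start. Mcm2, Mcm10 and Cdc45 held no octamer, and Cdt1, Mcm3 and Mcm7 held at least 1. A match is a string of letters, not a measured site.

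Over the whole list, 36 of the 42 genes had a promoter in the RefSeq table, as windows of 250 bases before to 50 bases after a start, some with several starts. Mcm4, Gins1, Gins2, Pole, Dscc1 and Ccne2 did not. At least 1 octamer was found in 15 of the 36 (41.7%), against 2.61% of 27025 genes with a promoter and 4.82% of the 8643 of these with at least 1 FPKM in the day 0 or day 6 control. Among the genes that were at least 8-fold lower in the day 6 control than at day 0, 11 of 22 held one. Among those from 2-fold to 8-fold lower, 3 of 13 did, namely Mcm7, Gins3 and Rfc3. E2f2, which was higher at day 6 than at day 0, held 1 as well. The shorter CCAAT box, bound by NF-Y, was in 63.9% of the 36 genes and 41.1% of all, and the CHR element TTTGAA, known from G2 and M phase genes, in 16.7% and 20.2%. Among the 8643 genes with at least 1 FPKM, the CCAAT box was in 43.3% and the CHR element in 13.8%. In a list of G2 and M phase genes, the CHR element was in 76% of 25 promoters and an E2F octamer in 12%. Both strands were searched for all of these. Mcm5 and Mcm7, subunits of the same hexamer that kept 1.27% and 19.3% of day 0, both held an octamer. Whether octamers go with what was kept was not tested.

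In dividing myoblasts all of the 42 genes were expressed. Their median was 27.2 FPKM in the day 0 control, from 6.72 FPKM for Orc1 to 245 FPKM for Pcna. In the day 6 control the median was 1.78 FPKM, 15 of the 42 were under 1 FPKM and none was at 0, and the range ran from 0.0633 FPKM for Cdc6 to 55.5 FPKM for Pcna. The median was 2.78 FPKM in the USP10 control, with 10 genes under 1 FPKM, and 8.58 FPKM in the day 8 control, with only Ung under 1 FPKM.

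**Figure D1:**
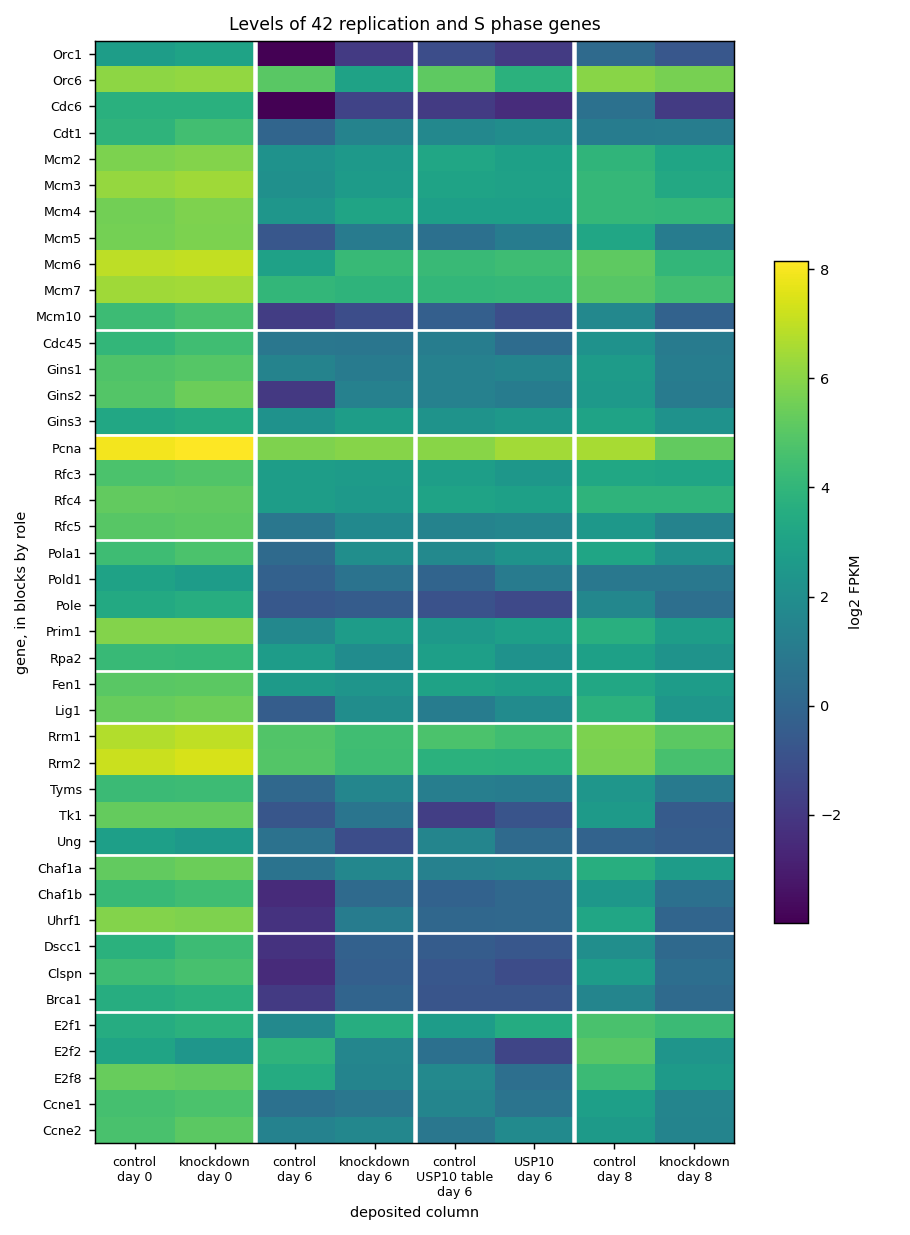
Levels of the 42 genes (rows, in blocks by role) in the 8 deposited columns, as log2 FPKM in colour. The day 0 columns are bright throughout, and the day 6 control holds the darkest cells, Cdc6 at 0.0633 FPKM and Orc1 at 0.0650 FPKM.

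Relative to the day 0 control, 41 of the 42 genes were at least 2-fold lower in the day 6 control, where 23.2% of all genes reaching 1 FPKM on either side were, and E2f2 was the exception. At least 8-fold lower, here called shut off, were 28 of the 42, against 6.27% of all genes. In the USP10 control, 40 were at least 2-fold lower (20.9% of all genes) and 23 were shut off (4.34%). In the day 8 control, 38 were at least 2-fold lower (15.7%), but only Cdc6 was shut off (2.39%), and E2f1 and E2f2 were at least 2-fold higher (20.0%). The median kept was 6.51% of day 0 in the day 6 control, 11.3% in the USP10 control and 29.4% in the day 8 control. Genes less than 2-fold lower, here called lingering, were E2f2 in the day 6 control, Orc6 and E2f1 in the USP10 control, and Orc6, Gins3, E2f1 and E2f2 in the day 8 control.

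**Figure D2:**
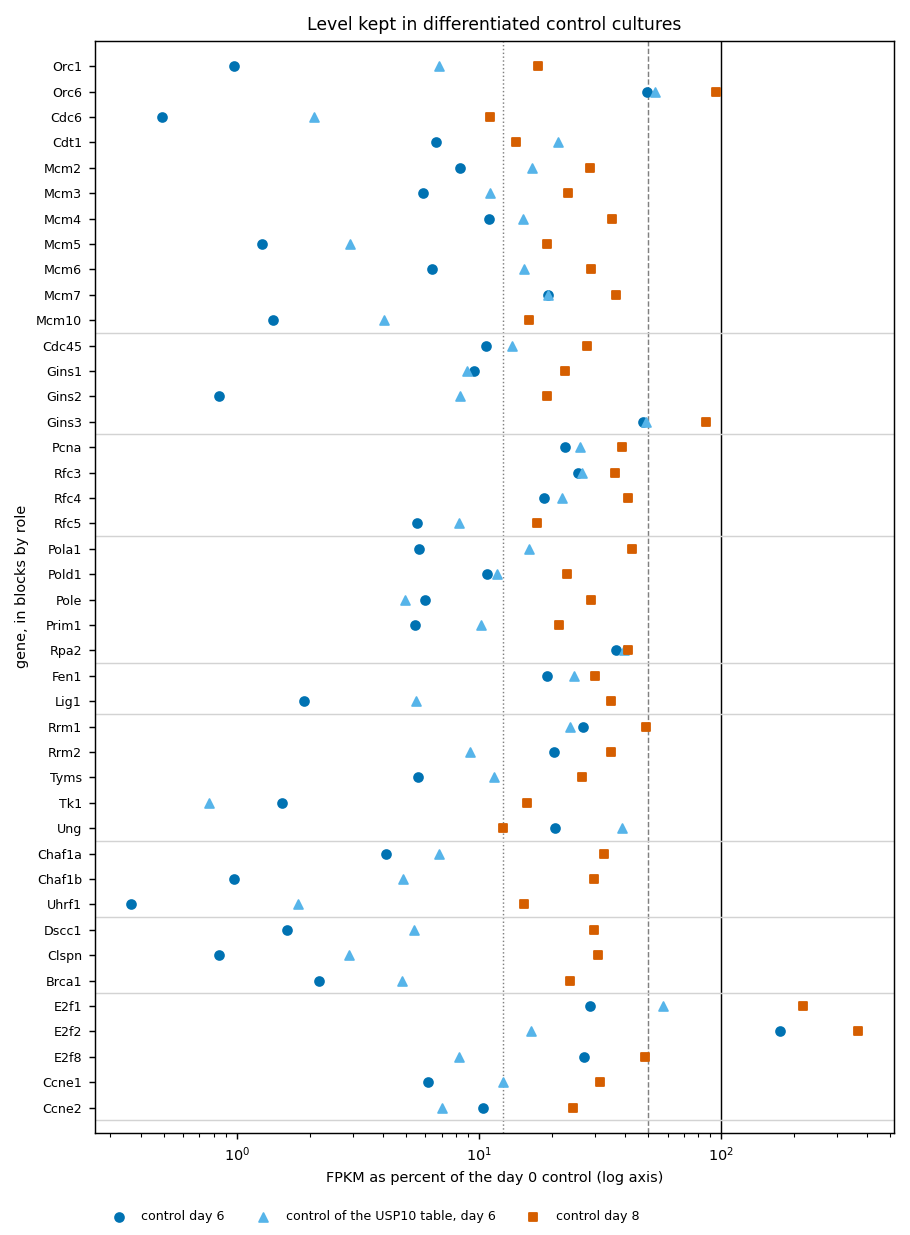
FPKM of each of the 42 genes in the 3 differentiated control columns as a percentage of the day 0 control, on a log axis, with a dotted line at 8-fold lower, a dashed line at 2-fold lower and a solid line at the day 0 level. The day 6 control lies farthest left for most genes, down to 0.365% for Uhrf1, while in the day 8 control only Cdc6 lies left of the dotted line.

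The scale of these comparisons had a limit that other genes show. The median of all genes moved by under 0.1 on the log2 scale between the control columns, but the median of 20 housekeeping genes was -0.93 at day 6 and -0.42 at day 8 relative to day 0. Measured against the housekeeping genes, the median of the 42 was -3.0 at day 6 instead of -3.93. The counts of shut off genes were not adjusted in this way. The housekeeping genes themselves ran from -3.27 for Actb to 1.02 for Sdha at day 6.

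Licensing genes spread widely in what they kept. Mcm6, a subunit of the MCM helicase and the licensing gene with the highest level at day 0, was at 122 FPKM in control myoblasts, 7.81 in the day 6 control, 18.7 in the USP10 control and 35.2 in the day 8 control. It was at 20.7 FPKM with USP10 and at 130.1, 18.0 and 16.5 FPKM in the knockdown of days 0, 6 and 8. Its day 6 control value was the lowest of the 8 columns, and the day 8 knockdown was below the day 8 control. The 6 subunits Mcm2 to Mcm7, which work together in 1 ring, lay within 2.54-fold of each other in the day 0 control and 26.9-fold apart in the day 6 control. There Mcm5 was lowest, at 0.615 FPKM, and Mcm7 highest, at 16.5 FPKM. The spread was 13.2-fold in the USP10 control, 3.84-fold in the day 8 control and 10.5-fold in the day 8 knockdown, and Mcm5 was the lowest subunit in each of these. The microRNA genes Mir106b, Mir25 and Mir93 lie within the listed locus of Mcm7.

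Mcm2 was at 54.8 FPKM in the day 0 control, at 15.7 FPKM in that of day 8, and at 4.56 and 9.08 FPKM in the day 6 and USP10 controls. In treated cells it was at 60.4 FPKM in knockdown myoblasts, 5.93 FPKM in the knockdown at day 6, 8.79 FPKM at day 8 and 7.54 FPKM in the USP10 library. Its day 0 columns lay highest, and its day 8 control was above both day 6 controls. Mcm4 was at 48.0, 5.26 and 16.9 FPKM in the controls of days 0, 6 and 8 and 7.32 FPKM in the USP10 control. After treatment the gene was at 56.6, 8.52 and 16.5 FPKM in the knockdown at days 0, 6 and 8 and at 7.29 FPKM with USP10. Among the controls both passed the 8-fold limit at day 6 only, with 8.31% and 11.0% kept, and the day 6 knockdown was past it for Mcm2 (9.81% of its day 0 column) but not for Mcm4 (15.1%). In the day 8 control they kept 28.6% and 35.2%. Cdt1, which brings MCM to the origin and is destroyed in S phase, was at 15.1 FPKM in control myoblasts, 0.996 in the day 6 control, 3.18 in the USP10 control and 2.14 in the day 8 control. It was at 3.84 FPKM with USP10 and at 22.4, 2.73 and 2.20 FPKM in the knockdown of days 0, 6 and 8. In the day 8 control Cdt1 was among the genes kept least (14.2%), and the day 8 knockdown had almost the same level.

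Orc6, the smallest subunit of the origin recognition complex, kept most among the licensing genes in each differentiated control and in the day 8 knockdown. It was at 67.1 FPKM in the day 0 control, at 63.8 FPKM in that of day 8, and at 33.2 and 35.8 FPKM in the day 6 and USP10 controls. Treated cells had it at 71.4 FPKM in knockdown myoblasts, 7.99 FPKM in the knockdown at day 6, 51.2 FPKM at day 8 and 13.7 FPKM in the USP10 library. The 3 differentiated controls and the day 8 knockdown thus lay between 33.2 and 63.8 FPKM, and the day 6 knockdown and the USP10 library lay below that range. In the day 6 knockdown Orc6 kept 11.2%, less than Mcm7 (17.2%), and with USP10 it kept 20.5%, less than Cdt1 (25.5%). Orc1, the subunit of the same complex that comes and goes with the cell cycle, was at 6.72, 0.0650 and 1.17 FPKM in the controls of days 0, 6 and 8 and 0.458 FPKM in the USP10 control, with all differentiated controls under the day 0 level. Cdc6, the ATPase that joins it at the origin, was at 12.9 FPKM in control myoblasts, 0.0633 in the day 6 control, 0.270 in the USP10 control and 1.44 in the day 8 control. These day 6 levels rest on about 6 fragments for Orc1 (95% exact Poisson interval 0.0245 to 0.145 FPKM) and 9 for Cdc6 (0.0299 to 0.124 FPKM), counted from the longest annotated coding transcript. Such intervals cover counting error only. The genes Mcm3 and Mcm10 were at 4.34 and 0.287 FPKM in the day 6 control, 5.84% and 1.41% of day 0.

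The genes that activate the helicase also differed widely in what they kept. Gins2, a subunit of the GINS complex, was at 30.2 FPKM in the day 0 control, at 5.77 FPKM in that of day 8, and at 0.255 and 2.52 FPKM in the day 6 and USP10 controls. It was at 43.2, 2.56 and 2.11 FPKM in the knockdown at days 0, 6 and 8 and at 2.13 FPKM with USP10. Its day 6 control was the lowest column by far, about 30 fragments. Its listed locus spans part of Gse1, so its level is uncertain. Gins3, another subunit of the same 4-protein complex, was at 9.64, 4.56 and 8.35 FPKM in the controls of days 0, 6 and 8 and 4.71 FPKM in the USP10 control. It was at 5.55 FPKM with USP10 and at 11.3, 6.92 and 4.59 FPKM in the knockdown of days 0, 6 and 8. Gins3 thus lay between 4.56 and 11.3 FPKM in all 8 columns, while Gins1 was at 9.51% of day 0 in the day 6 control. Cdc45, which joins MCM and GINS in the active helicase, was at 16.4 FPKM in control myoblasts, 1.76 in the day 6 control, 2.25 in the USP10 control and 4.58 in the day 8 control. It was at 21.2 FPKM in knockdown myoblasts, 1.71 FPKM in the knockdown at day 6, 2.06 FPKM at day 8 and 1.23 FPKM in the USP10 library, so that all 4 values at day 6 lay between 1.23 and 2.25 FPKM.

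Pcna, the sliding clamp, had the highest level of the 42 in each control column. It was at 245 FPKM in the day 0 control, at 95.8 FPKM in that of day 8, and at 55.5 and 63.8 FPKM in the day 6 and USP10 controls. Its treated columns were at 283, 62.3 and 37.5 FPKM in the knockdown at days 0, 6 and 8 and at 87.2 FPKM with USP10. No differentiated control held less than 22.7% of the day 0 level of Pcna. Rfc4, a subunit of the clamp loader RFC, was at 37.1, 6.89 and 15.2 FPKM in the controls of days 0, 6 and 8 and 8.20 FPKM in the USP10 control. In treated cells it was at 7.64 FPKM with USP10 and at 37.0, 5.76 and 14.9 FPKM in the knockdown of days 0, 6 and 8. Its locus overlaps Eif4a2, a highly expressed translation factor gene, and 2 small nucleolar RNA genes. Rfc3 kept 25.7% and Rfc5 5.56% of day 0 in the day 6 control, so the subunits of the loader were not kept to the same degree.

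Among polymerases and their partners, Prim1, the catalytic subunit of primase, had the highest day 0 level. It was at 58.8 FPKM in control myoblasts, 3.21 in the day 6 control, 5.98 in the USP10 control and 12.6 in the day 8 control. After treatment the gene was at 59.5 FPKM in knockdown myoblasts, 6.56 FPKM in the knockdown at day 6, 6.84 FPKM at day 8 and 7.35 FPKM in the USP10 library. The day 6 knockdown and the USP10 library were above both day 6 controls. Pola1, the catalytic subunit of polymerase alpha, which extends the primers, was at 20.5 FPKM in the day 0 control, at 8.81 FPKM in that of day 8, and at 1.16 and 3.30 FPKM in the day 6 and USP10 controls. Treated cells had it at 26.2, 4.01 and 4.46 FPKM in the knockdown at days 0, 6 and 8 and at 4.73 FPKM with USP10. Pola1 was the gene of this group that differed most between the day 6 and day 8 controls. Pold1, the catalytic subunit of polymerase delta, which copies the lagging strand, was at 7.99, 0.860 and 1.84 FPKM in the controls of days 0, 6 and 8 and 0.944 FPKM in the USP10 control. It was at 2.12 FPKM with USP10 and at 6.49, 1.55 and 1.85 FPKM in the knockdown of days 0, 6 and 8. In the USP10 control its level rests on about 25 fragments. Pole, the catalytic subunit of polymerase epsilon on the leading strand, kept 5.99% at day 6 and 29.1% at day 8. Rpa2, a subunit of the single-strand binding protein RPA, kept more, 36.7% and 41.1%.

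Both genes that finish Okazaki fragments were measured. Lig1, the replicative DNA ligase, was at 39.5 FPKM in control myoblasts, 0.748 in the day 6 control, 2.18 in the USP10 control and 13.9 in the day 8 control. Its treated columns were at 44.2 FPKM in knockdown myoblasts, 3.93 FPKM in the knockdown at day 6, 5.25 FPKM at day 8 and 3.61 FPKM in the USP10 library. Fen1, the flap nuclease, was at 33.0 FPKM in the day 0 control, at 9.94 FPKM in that of day 8, and at 6.28 and 8.11 FPKM in the day 6 and USP10 controls. Lig1 was thus shut off in the day 6 control (1.89% kept) where Fen1 was not (19.1%), although in the day 8 control the 2 kept 35.1% and 30.2%. The Lig1 locus overlaps 6330408A02Rik.

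Of the genes that supply nucleotides, Rrm2, the regulated subunit of ribonucleotide reductase, had the highest level at day 0. It was at 147, 30.0 and 51.4 FPKM in the controls of days 0, 6 and 8 and 13.5 FPKM in the USP10 control. In treated cells it was at 172, 20.6 and 24.7 FPKM in the knockdown at days 0, 6 and 8 and at 13.1 FPKM with USP10. Its partner Rrm1 was at 109 FPKM in control myoblasts, 29.3 in the day 6 control, 26.0 in the USP10 control and 53.4 in the day 8 control. The day 6 and day 8 controls kept between 20.5% and 48.9% of these genes, and Rrm2 was shut off in the USP10 control (9.19%), in the day 6 knockdown (12.0% of its day 0 column) and with USP10 (8.89%). Tk1, the thymidine kinase that salvages thymidine in S phase, was at 39.2 FPKM in the day 0 control, at 6.18 FPKM in that of day 8, and at 0.601 and 0.301 FPKM in the day 6 and USP10 controls. After treatment the gene was at 0.564 FPKM with USP10 and at 39.0, 1.64 and 0.717 FPKM in the knockdown of days 0, 6 and 8. Its lowest value, in the USP10 control, rests on about 3 fragments (0.0550 to 0.779 FPKM), and its locus overlaps Afmid. Tyms, thymidylate synthase, was shut off in the day 6 control (5.58% kept) and not in the day 8 control (26.6%). Ung, the uracil glycosylase that removes uracil from new DNA, was at 7.38, 1.52 and 0.923 FPKM in the controls of days 0, 6 and 8 and 2.88 FPKM in the USP10 control. Treated cells had it at 6.05 FPKM in knockdown myoblasts, 0.454 FPKM in the knockdown at day 6, 0.743 FPKM at day 8 and 1.16 FPKM in the USP10 library. It was the only gene of the 42 whose day 8 control lay below its day 6 control.

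The 3 genes of chromatin assembly kept between 0.365% and 4.13% in the day 6 control. Uhrf1, which recruits the maintenance methyltransferase to newly copied DNA, was at 59.6 FPKM in control myoblasts, 0.217 in the day 6 control, 1.06 in the USP10 control and 9.09 in the day 8 control. It was at 55.6, 2.14 and 0.986 FPKM in the knockdown at days 0, 6 and 8 and at 1.10 FPKM with USP10. Uhrf1 kept the smallest share of the 42 in the day 6 control (0.365%, about 23 fragments). Chaf1b, a subunit of the histone chaperone CAF-1, was at 18.3 FPKM in the day 0 control, at 5.49 FPKM in that of day 8, and at 0.178 and 0.889 FPKM in the day 6 and USP10 controls. Its treated columns were at 1.10 FPKM with USP10 and at 21.2, 1.14 and 1.42 FPKM in the knockdown of days 0, 6 and 8. Chaf1a, the large subunit of the same chaperone, kept 4.13% at day 6 and 32.7% at day 8, beside 0.972% and 29.9% for Chaf1b.

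Genes of fork protection, cohesion and repair followed. Clspn, the adaptor claspin of the replication checkpoint, was at 21.1, 0.178 and 6.57 FPKM in the controls of days 0, 6 and 8 and 0.612 FPKM in the USP10 control. In treated cells it was at 24.5 FPKM in knockdown myoblasts, 0.801 FPKM in the knockdown at day 6, 1.34 FPKM at day 8 and 0.447 FPKM in the USP10 library. Of its differentiated columns the day 8 control was highest. Dscc1, part of the alternative clamp loader that acts in cohesion, was at 13.7 FPKM in control myoblasts, 0.220 in the day 6 control, 0.741 in the USP10 control and 4.08 in the day 8 control. After treatment the gene was at 20.4, 0.874 and 1.13 FPKM in the knockdown at days 0, 6 and 8 and at 0.625 FPKM with USP10. Brca1, which protects stalled forks and repairs breaks, kept 2.19% in the day 6 control and 23.8% in the day 8 control. The 3 genes of this group were all under 1 FPKM in the day 6 control and between 2.87 and 6.57 FPKM in the day 8 control.

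The 3 E2F factors kept more than the median of the list in the day 6 control, from 27.2% for E2f8 to 175% for E2f2. E2f2, an activating E2F, was at 8.66 FPKM in the day 0 control, at 31.8 FPKM in that of day 8, and at 15.1 and 1.42 FPKM in the day 6 and USP10 controls. Treated cells had it at 0.363 FPKM with USP10 and at 5.30, 3.03 and 5.09 FPKM in the knockdown of days 0, 6 and 8. It was the only one of the 42 whose day 6 control exceeded day 0, and in the USP10 control it was lower than at day 0, so the 2 day 6 controls disagree on its direction. E2f1, the other activating factor of the list, was at 11.5, 3.29 and 25.1 FPKM in the controls of days 0, 6 and 8 and 6.63 FPKM in the USP10 control. It was at 13.6 FPKM in knockdown myoblasts, 11.7 FPKM in the knockdown at day 6, 19.6 FPKM at day 8 and 11.1 FPKM in the USP10 library. Its day 8 control exceeded its day 0 control. E2f8, an atypical E2F that represses E2F targets late in S phase, was at 40.7 FPKM in control myoblasts, 11.1 in the day 6 control, 3.35 in the USP10 control and 19.6 in the day 8 control. Its treated columns were at 38.1, 2.79 and 6.16 FPKM in the knockdown at days 0, 6 and 8 and at 1.35 FPKM with USP10. The E cyclins, which start S phase with Cdk2, were lower in every differentiated column. Ccne1 was at 23.4 FPKM in the day 0 control, at 7.38 FPKM in that of day 8, and at 1.44 and 2.94 FPKM in the day 6 and USP10 controls. In treated cells it was at 1.61 FPKM with USP10 and at 26.1, 1.76 and 2.89 FPKM in the knockdown of days 0, 6 and 8. Among its differentiated columns the day 8 control stood highest. Ccne2, whose locus overlaps Ints8, was at 25.5, 2.64 and 6.22 FPKM in the controls of days 0, 6 and 8 and 1.79 FPKM in the USP10 control. After treatment the gene was at 33.9 FPKM in knockdown myoblasts, 3.08 FPKM in the knockdown at day 6, 2.78 FPKM at day 8 and 3.49 FPKM in the USP10 library. In FPKM, both E cyclins were above E2f1 in the day 0 control and below it in the 3 differentiated controls.

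The day 6 and day 8 controls differed for nearly the whole list. In the day 8 control 41 of the 42 genes were above the day 6 control and 31 were at least 2-fold higher, where 13.8% of all genes were, with a median log2 ratio of 1.88. None was at least 2-fold lower, where 5.81% were. The highest ratios were those of Uhrf1 (5.32), Clspn (5.13) and Chaf1b (4.87), and the lowest those of Ung (-0.71), Rpa2 (0.17) and Rfc3 (0.50). The housekeeping genes had a median of 0.36 between these columns. G2 and M phase genes were higher in 30 of 30 cases with a median of 4.58, among them the proliferation marker Mki67 at 0.629 and 46.7 FPKM. Markers of undifferentiated and reserve cells were higher in 8 of 9 and summed to 92.8 FPKM at day 6 and 192 FPKM at day 8, with Pax7 at 7.54 and 24.7 FPKM. In treated cells against their own control, 7 of these 9 were lower in the day 6 knockdown and 7 with USP10. In the day 8 knockdown, 3 were lower and 6 higher. Day, hairpin treatment and table differ together between the day 6 and day 8 controls and cannot be told apart.

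The 2 day 6 controls also differed. Of the 42 genes, 33 were above the day 6 control in the USP10 control, and 20 differed by at least 2-fold in either direction, with a median absolute difference of 0.98 on the log2 scale. Over all genes with at least 1 FPKM, 19.9% differed by as much. At least 2-fold higher were 17 of the 42, where 10.9% of the genes with at least 1 FPKM in the day 0 control were, and 3 were at least 2-fold lower, where 5.65% were. That minimum, added after the data had been seen, rests on a column outside the comparison, and all 42 genes pass it. With a minimum of 1 FPKM in either column, 10 of 32 were at least 2-fold higher (11.2% of all genes), 5 of them through the USP10 control column alone, and 3 lower (8.66%). Gins2 (3.25), Uhrf1 (2.24) and Cdt1 (1.66) had the highest ratios among these, and E2f2 (-3.41), E2f8 (-1.72) and Rrm2 (-1.15) the lowest. Myotube markers were lower in the USP10 control in 17 of 18 cases and G2 and M phase genes higher in 24 of 25. Each comparison at day 6 below is therefore given against its own control first and then against the other.

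In myoblasts at day 0, Huwe1 knockdown left the list close to the control. Of the 42 genes, 34 were higher and 8 lower, with a median log2 ratio of 0.16, beside a median of 0.00 for all genes. None was 2-fold lower or higher, where 1.69% and 1.90% of all genes were. The largest ratios were those of Dscc1 (0.57), Cdt1 (0.57) and Gins2 (0.52), and the lowest those of E2f2 (-0.71), Pold1 (-0.30) and Ung (-0.29). All 11 licensing genes and all 4 helicase activation genes were on the higher side, from 0.01 for Cdc6 to 0.57 for Cdt1. Of 52 other replication genes 43 were higher, with a median of 0.15, and of 30 G2 and M phase genes 21, with a median of 0.13.

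At differentiation day 6, the knockdown column lay above its control for 29 of the 42 genes, while the 42 together summed to 272 FPKM without and 263 FPKM with knockdown. At least 2-fold higher were 18 genes, where 17.2% of the genes with at least 1 FPKM in the day 0 control were, and 4 were at least 2-fold lower, where 8.99% were. The median log2 ratio of the 42 was 0.68. A minimum of 1 FPKM on either side left 35 genes, of which 13 were at least 2-fold higher (17.6% of all genes) and 4 lower (13.4%), but 7 of the 13 passed it through the knockdown column alone. With 1 FPKM in both columns 6 of 26 genes were at least 2-fold higher, where 12.5% of all genes were. Over the 18 genes that reached 5 FPKM on either side, 3 were at least 2-fold higher and 3 lower, and the median turned to -0.092. The highest were Gins2 (3.27), Uhrf1 (3.24) and Chaf1b (2.62). Their control levels were between 0.178 and 0.255 FPKM and their knockdown levels between 1.14 and 2.56 FPKM, where the day 0 knockdown held between 21.2 and 55.6 FPKM. The 4 lower genes were E2f2 (-2.32), Orc6 (-2.05), E2f8 (-1.98) and Ung (-1.72). Chromatin assembly genes were at least 2-fold higher in 3 of 3 cases, while clamp and clamp loader genes were within 2-fold in 4 of 4. Of those 3, Chaf1b and Uhrf1 reached 1 FPKM through the knockdown column alone, and Chaf1a had a ratio of 1.00. Chaf1a, Chaf1b and Uhrf1 were at 3.12, 1.14 and 2.14 FPKM in the knockdown and at 2.56, 0.889 and 1.06 FPKM in the USP10 control.

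The difference was smaller against the other day 6 control. Set against the USP10 control in place of its own, a comparison across tables that was added after the data had been seen, the knockdown column had a median ratio of 0.18 over the 42 genes, with 3 at least 2-fold higher and 2 lower, where 11.6% and 5.74% of the genes with at least 1 FPKM in the day 0 control were. Genes outside the list differed in the day 6 knockdown as well. Of the D cyclins, which start the cycle in response to growth factors, Ccnd1 (1.03 and 69.1 FPKM) and Ccnd2 (1.69 and 40.5 FPKM) were higher. The CDK inhibitor Cdkn1a was at 491 and 201 FPKM. In the list that holds these genes, 14 reached 1 FPKM, of which 5 were higher, 2 by at least 2-fold, and 9 lower, 4 by at least 2-fold. G2 and M phase genes were at least 2-fold higher in 24 of 29, where 17.6% of all genes were. Of the 30 in that list, 19 were under 1 FPKM in the day 6 control and 1 in the knockdown. The list summed to 63.6 FPKM in the day 6 control, 115 FPKM in the knockdown and 111 FPKM in the USP10 control. Markers of fibroblast and adipogenic cells were higher in all 7 that reached 1 FPKM, of 9 in the list, and summed to 125 and 4278 FPKM without and with knockdown, most of it decorin (Dcn, 7.94 and 2987 FPKM), with Adipoq and Thy1 at 0 in both columns. Their part in the result was not tested.

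**Figure D3:**
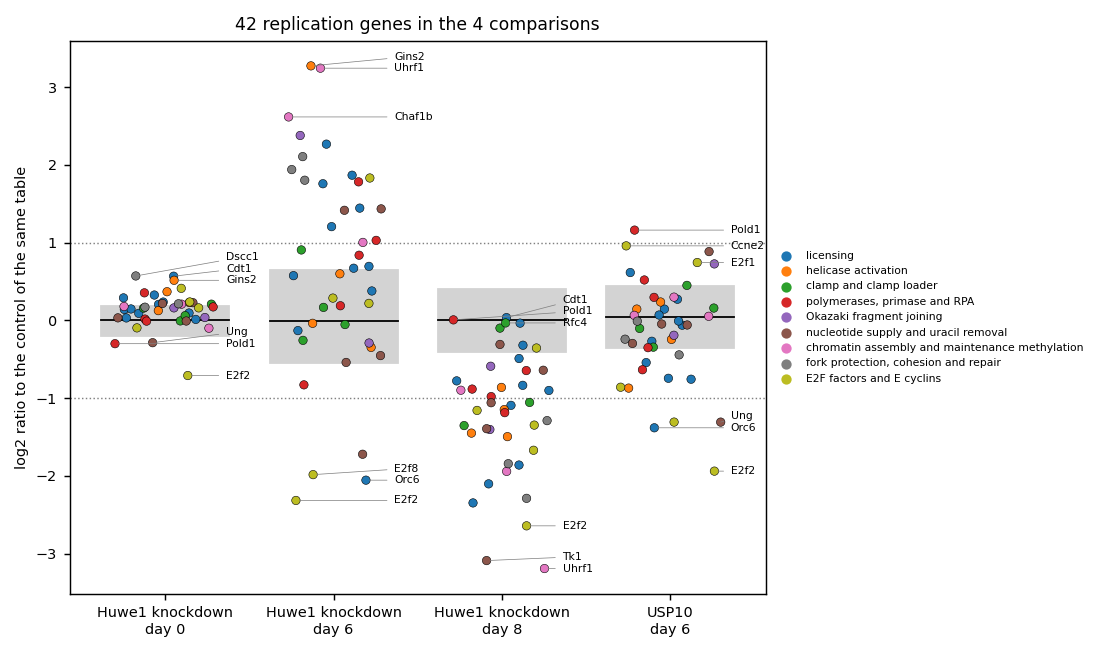
Log2 ratio to the control of the same table for each of the 42 genes in the 4 comparisons, coloured by role, with the interquartile range of all genes with at least 1 FPKM as a grey box, their median as a line, and dotted lines at 2-fold. The points lie close to 0 at day 0, reach from -2.32 to 3.27 at day 6 and lie mostly below 0 at day 8.

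In myotubes at day 8, where Huwe1 was knocked down after fusion, the knockdown column held less of nearly every gene. Of the 41 genes that reached 1 FPKM on either side, 39 were lower and 23 were at least 2-fold lower, or 56.1%, where 10.0% of all genes were. None was at least 2-fold higher, where 7.89% were. With all 42 counted, 23 were at least 2-fold lower and 0 higher, where 7.94% and 5.31% of the genes with at least 1 FPKM in the day 0 control were, and the median was -1.08. The lowest ratios were those of Uhrf1 (-3.19), Tk1 (-3.09) and E2f2 (-2.64). Cdt1 (0.04), Pold1 (0.01) and Rfc4 (-0.03) were at the control level.

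By role, fork protection genes were at least 2-fold lower in 3 of 3 cases, helicase activation genes in 3 of 4, E2F factors and E cyclins in 4 of 5, and polymerases, primase and RPA in 1 of 5. Pcna, at 95.8 and 37.5 FPKM, had the lowest ratio of the clamp group (-1.35), and in this column alone Orc6, at 51.2 FPKM, had a higher level than Pcna. Other replication genes had a median of -0.45, with 15 of 51 at least 2-fold lower, and G2 and M phase genes -3.09, with 28 of 30. The housekeeping median was -0.31. Here Ccnd1 and Ccnd2 were not higher (4.94 and 4.47 FPKM, 1.39 and 1.23 FPKM), and Dcn was at 4.19 and 8.75 FPKM. Of the 9 fibroblast and adipogenic markers, 5 reached 1 FPKM, 3 of them higher and 2 lower in the knockdown, with Ly6a at -1.69, and Adipoq was at 0 in both columns. Their sums of 435 and 735 FPKM were mostly Col3a1 (411 and 710.2 FPKM). Over the 42 genes, the day 8 knockdown had a median of 3.68 FPKM, beside 1.78 to 3.05 FPKM in the 4 columns of day 6.

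With USP10 at day 6, the list as a whole stayed near its control. Of the 34 genes that reached 1 FPKM on either side, 4 were at least 2-fold lower, where 10.0% of all genes were, and 1 was at least 2-fold higher, where 9.70% were. With all 42 counted these numbers were the same, where 5.49% and 9.09% of the genes with at least 1 FPKM in the day 0 control were, and the median was -0.05. The 4 lower genes were E2f2 (-1.94), Orc6 (-1.38), Ung (-1.31) and E2f8 (-1.31), and the highest were Pold1 (1.16), Ccne2 (0.96) and E2f1 (0.74). Since the headers of both day 6 tables name the same control library, values of the 2 comparisons are only set side by side. E2f8 was at 3.35 and 1.35 FPKM in the USP10 table and at 11.1 and 2.79 FPKM in the knockdown table, and Ung at 2.88 and 1.16 FPKM and at 1.52 and 0.454 FPKM.

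Against the day 6 control of the Huwe1 table, again a comparison across tables added later, the USP10 column had a median of 0.72 over the 42 genes, with 16 at least 2-fold higher and 4 lower, where 17.5% and 10.5% of the genes with at least 1 FPKM in the day 0 control were. Ccnd1 was at 10.4 and 55.4 FPKM and Ccnd2 at 13.4 and 55.9 FPKM in the USP10 table. Fibroblast and adipogenic markers were higher in all 7 that reached 1 FPKM and summed to 436 and 3960 FPKM there, with Dcn at 50.3 and 3037 FPKM and Adipoq at 0 in both. G2 and M phase genes had a median of -0.40. Their part in the ratios of the 42 genes was not tested.

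Measured against their own day 0 column, most of the list was shut off in the treated cultures as well. In the day 6 knockdown 27 of the 42 genes were shut off relative to the day 0 knockdown (3.20% of all genes), and Gins3, E2f1 and E2f2 lingered. In the day 8 knockdown 23 were shut off (4.45%), and Orc6, E2f1 and E2f2 lingered. With USP10, set against the day 0 control, 23 were shut off (3.19%), and Gins3 and E2f1 lingered. At least 2-fold lower were 39 genes in the day 6 knockdown, where 16.9% of all genes were, 39 in the day 8 knockdown (19.0%) and 40 with USP10 (15.6%). The medians kept were 9.44%, 11.8% and 10.2%, all between those of the day 6 and day 8 controls. E2f1 was the gene kept most in each of these 3 columns, at 86.7%, 145% and 96.7%. The least kept were Mcm10 (1.82%), Uhrf1 (1.77%) and Cdc6 (1.41%).

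**Figure D4:**
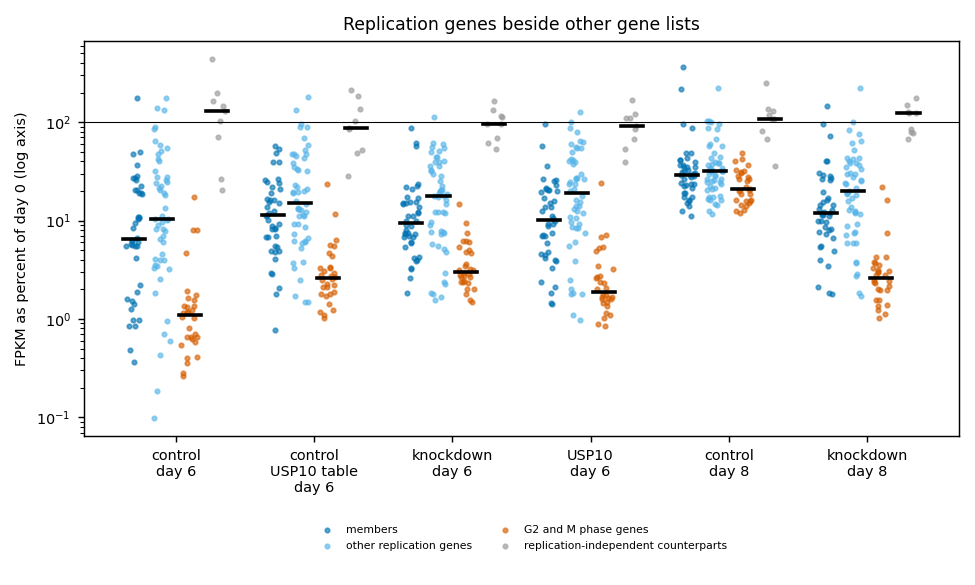
FPKM as a percentage of day 0 for the 42 genes and 3 other gene lists in 6 differentiated columns, on a log axis, with 1 point per gene and a bar at the median of each list. Knockdown columns are set against the day 0 knockdown and the others against the day 0 control. The medians of the 42 genes run from 6.51% to 29.4%, those of the G2 and M phase genes from 1.10% to 20.7%, and those of the replication-independent counterparts from 87.4% to 130.4%.

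The 52 other replication genes, among them the remaining subunits of the same complexes, kept a median of 10.4% in the day 6 control, 15.2% in the USP10 control and 31.9% in the day 8 control. Orc2, Orc3, Orc4 and Orc5 kept 47.1%, 133%, 63.9% and 31.9% in the day 6 control, beside 0.968% for Orc1 and 49.5% for Orc6. Rpa1 kept 27.8%, and Dnmt1, the maintenance methyltransferase that Uhrf1 recruits, 24.9%. Rnaseh2a, which removes ribonucleotides from DNA, was higher in the day 6 control (21.9 FPKM) than at day 0 (12.6 FPKM), and lower in the day 6 knockdown (4.68 FPKM) and with USP10 (5.09 FPKM) than in either day 6 control. The 30 G2 and M phase genes kept less, 1.10% and 2.59% in the 2 day 6 controls and 20.7% in the day 8 control. The 9 replication-independent counterparts, genes with roles outside S phase, kept medians of 130.4%, 87.4% and 107%. Among them Mcm9 kept least in the day 6 control, 20.7%. Another of the 9, Rrm2b, the reductase subunit of resting cells, was at 8.58 and 16.9 FPKM in the controls of days 0 and 6. Rrm2 was at 147 and 30.0 FPKM there.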

How the data were processed

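RNA of C2C12 cells was purified on oligo(dT) beads, made into directional libraries (ScriptSeq v2) and sequenced on a HiSeq 2000. Tophat mapped the reads per the study's methods, and the submitters' processing notes name Bowtie2, Cuffdiff and mm10, with versions and annotation not given in the sources used here. The authors deposited 4 Cuffdiff tables, each with 1 FPKM value per gene and condition (scaled by transcript length and library size within a table). Their log2 fold changes, test statistics, p-values, q-values and calls were not used, and all 8 FPKM columns were.

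The 42 genes and the other lists were chosen with earlier results of these data known. Ratios are log2 with a pseudocount of 0.01, and counts use genes reaching 1 FPKM on either side. Where that drops some of the 42, the all-42 counts keep them. Their shares are over genes with at least 1 FPKM in the day 0 control, unless stated. Values in every column are given for the gene with the highest day 0 control level in each role, genes shut off or lingering in only 1 later control, and the 3 lowest and 3 highest of each comparison within a table. Further genes were named after their values had been seen. Depth came from genes with 1 transcript of at least 1500 bases, from what 1 fragment is worth in FPKM. The counting was run on data simulated from the day 0 control. Its planted changes were well beyond 2-fold, and its noise was below the spread of the day 0 knockdown ratios. There 200 of 200 changed genes and 0 others were counted over 10637 genes, which checks the code and not the accuracy on these data. In a separate simulation with known fragment numbers, depth was within 0.471%. Promoters came from RefSeq (GRCm38.p6), as 42 entries for 36 of the genes. For 34 of these entries, bases shortly after the start lay in an annotated transcript of the same gene, which does not check the start itself. Alternatives were pseudocounts, minimum levels, centring, the other day 6 control and, added later, 1 FPKM in the day 0 control. Python 3.11.15, numpy 2.4.6, pandas 2.3.3, scipy 1.17.1 and matplotlib 3.10.9 were used.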

Additional observations from a re-analysis of the deposited data

Results flagged for a closer look

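The knockdown ratios at day 6 and day 8 lay in opposite directions for part of the list. The median log2 ratio of the 42 genes at day 8 minus that at day 6 was -1.76. Of the 42, 12 were at least 2-fold higher in the knockdown at day 6 and at least 2-fold lower at day 8, where 313 of the 10604 genes with at least 1 FPKM in the day 0 control (2.95%) were. The day 8 minus day 6 difference in log2 ratio was -6.44 for Uhrf1, -4.72 for Gins2, -4.61 for Cdc6, -4.56 for Chaf1b, -4.52 for Tk1 and -4.40 for Clspn. It was -3.86 for Mcm5, -3.78 for Lig1 and for Dscc1, -3.09 for Brca1, -2.81 for Tyms and -2.30 for Mcm6. The difference was not tested, since each side is 1 ratio of 1 control library and a pooled knockdown column. The hairpins as labelled, the day of infection, the kind of control and the table differ between the 2 comparisons and cannot be told apart. The day 8 control was at least 2-fold above the day 6 control in 31 of the 42 genes. Of the 12, all but Mcm6 and Tyms were under 1 FPKM in the day 6 control, so their ratios there are imprecise. Against the USP10 control instead, 3 of the 42 were at least 2-fold higher in the day 6 knockdown. Of the genes with at least 1 FPKM in the day 0 control, 11.6% were.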

How the results depend on the processing

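Of 98 alternative values for the medians, 83 moved by less than 1.5-fold and kept their sign. The knockdown median at day 6 turned to -0.092 with a minimum of 5 FPKM. With USP10 the median of 0.023 turned to -0.054 with that minimum, -0.0071 with 1 FPKM in both columns, -0.053 with no minimum or with 1 FPKM in the day 0 control, -0.027 centred on the median gene and -0.11 centred on housekeeping genes. Control day 6 against day 0 moved to -3.0 with a pseudocount of 1, -2.43 with 1 FPKM in both columns and -3.0 centred on housekeeping genes, and control day 8 against day 6 to 1.28 and 1.24 in the first 2 settings. Centred on housekeeping genes, the day 6 knockdown, USP10 and the USP10 control against day 0 moved to -2.49, -2.58 and -2.50. Of 201 counts and depths, 21 moved by more. The 13 genes at least 2-fold higher in the day 6 knockdown became 6 with a pseudocount of 1, 3 with a minimum of 5 FPKM and 6 with 1 FPKM in both columns. Against the USP10 control they became 3. With USP10 the 4 lower genes became 1 with a pseudocount of 1 or a minimum of 5 FPKM, and the 1 higher gene 0. Against the day 6 control of the Huwe1 table, 4 genes were lower with USP10 and 11 higher. With 1 FPKM in both columns, the 41 lower at day 6 became 26, and the 31 higher at day 8 than at day 6 became 16. The 10 higher in the USP10 control became 3, 2 and 5, and 17 with no minimum or with 1 FPKM in the day 0 control. Centred on housekeeping genes, 3 counts of 0 became 1. The settings with higher minimums leave out the lowest genes, and the cause of the other shifts was not tested. No paired analysis was possible because each column holds 1 value per condition, and no library could be left out. The genes lowest at day 6 rest on few fragments, 4 of the 42 on under 20 in the day 6 control and 5 in the USP10 control, and their ratios are the least precise.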

Other observations

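Cdkn1a, Cdkn1c and Rb1, from a list of 16 CDK inhibitors, pocket proteins and D cyclins, were described by level only. Of the 14 in that list that reached 1 FPKM on either side, 9 were lower and 5 higher in the knockdown at day 6. At day 8, 12 were lower and 2 higher in the knockdown, and with USP10 9 were lower and 5 higher. Their part in the levels of the replication genes was not tested. Cdkn1a was at 77.8, 491 and 522 FPKM in the controls of days 0, 6 and 8 and at 286 FPKM in the USP10 control. Its 3 treated values after differentiation lay together, at 201 and 200.4 FPKM in the knockdown and 248 FPKM with USP10. Cdkn1c, another CDK inhibitor, was at 8.56 and 0.0400 FPKM without and with knockdown at day 6, at 67.7 and 7.26 FPKM at day 8, and at 4.95 and 0.658 FPKM in the USP10 table. The pocket protein Rb1 was at 13.2 FPKM at day 0 and 49.2 and 40.2 FPKM in the controls of days 6 and 8, with 30.2 and 23.2 FPKM in the knockdown. All of these levels are single values without replicates.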
